A study of Mus musculus with 15 samples.

Results

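The genes described here are the 56 replication-dependent histone genes of the deposited tables, chosen as all rows named with the prefix Hist1, Hist2, Hist3 or Hist4 in the symbol column. All 56 are among the 16470 genes of the vehicle table, and 55 are among the 16428 genes of the ibrutinib table, which does not list Hist1h1t, a linker histone known from testis. By the class in the symbol they comprise 6 H1, 15 H2A, 16 H2B, 6 H3 and 13 H4 genes. In GRCm38, 45 lie in the Hist1 cluster on chromosome 13, 7 in the Hist2 cluster on chromosome 3, 3 in the Hist3 cluster on chromosome 11, and Hist4h4 lies alone on chromosome 6. The files call 53 of them protein-coding, 2 pseudogenes (Hist1h2aj and Hist3h2bb-ps) and 1, Hist2h2bb, a long noncoding RNA.

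Spleen B-cells of tumor-burdened C57Bl/6 mice were cultured for 24 h and their RNA was sequenced. Eμ-TCL1 mice carry the TCL1 oncogene under an immunoglobulin enhancer active in B-cells and develop a CLL-like leukemia, and Eμ-TCL1;p53R172H/+ mice carry in addition 1 mutant Trp53 allele, which the files do not separate from the normal one. Ibrutinib, an inhibitor of the kinase BTK, was given at 5 μM, and the controls received the solvent DMSO. There were 3 Eμ-TCL1 libraries (replicates 2, 3 and 4) and 5 Eμ-TCL1;p53R172H/+ libraries in DMSO, and 3 Eμ-TCL1 libraries (replicates 1, 3 and 4) and 4 Eμ-TCL1;p53R172H/+ libraries (replicates 1, 3, 4 and 5) in ibrutinib. Values are normalized read counts on a counts-per-million scale, each table was scaled on its own, and the read depth is unknown.

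Core histones H2A, H2B, H3 and H4 form the nucleosome, and linker histone H1 binds the DNA between nucleosomes. Replication-dependent histone genes are expressed mainly in S phase, when new DNA has to be packed. Their mRNAs mostly lack a poly(A) tail and end just after a short stem-loop that is bound by the protein Slbp. Some of these genes also give polyadenylated mRNAs in cells that have stopped dividing.

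The stem-loop sets these messages apart from other mRNAs, so it is shown for 5 members that cover an H1, an H2B, an H3 and a pair of H4 genes, Hist1h4b of lowest p and Hist1h4m of highest log2 change among all members in DMSO. The 16 bases of stem and loop are in capitals, read 5′ to 3′ on the strand of the gene from GENCODE M21 transcripts (GRCm38), and they lie in exons at chr13:23739512-23739527 for Hist1h1c, chr13:23747203-23747218 for Hist1h2bb, chr13:23761890-23761905 for Hist1h3a, chr13:23757366-23757381 for Hist1h4b and chr13:21812129-21812144 for Hist1h4m.
Hist1h1c: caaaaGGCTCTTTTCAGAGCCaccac
Hist1h2bb: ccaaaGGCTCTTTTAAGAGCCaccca
Hist1h3a: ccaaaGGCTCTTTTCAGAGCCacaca
Hist1h4b: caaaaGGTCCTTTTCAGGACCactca
Hist1h4m: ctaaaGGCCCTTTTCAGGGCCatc

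Among the annotated transcripts of the members, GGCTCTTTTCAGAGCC was held by 20 genes, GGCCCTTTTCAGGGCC by 7 and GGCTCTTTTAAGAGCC by 5. Of 58725 other protein-coding transcripts 14, or 0.0238%, held a sequence of this form. In 23 members the annotated transcript ended within 200 bases of the stem-loop, in 15 it ran further, and in 18 it held none. The annotated exons of these 18 spanned from 312 bases in Hist1h4k to 2620 in Hist2h2be. Where an annotation stops before the end of the mRNA, a stem-loop would be missed, so its absence here describes the annotation. The transcript of Hist1h1c ran 840 bases past the stem-loop and that of Hist1h2bb 23 bases.

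RefSeq promoters (GRCm38.p6, from 250 bases before to 50 after the start) were matched for 49 of 56 members. The 250 bases before the start are shown for Hist1h1b (chr13:21780626-21780875, minus strand), Hist1h1c (chr13:23738557-23738806, plus strand) and Hist1h2bb (chr13:23746484-23746733, plus strand). These genes belong to the same cluster, and their values are given in the results. Capitals mark the TATA box (TATAAA), the CCAAT box, the octamer of Oct factors (ATTTGCAT) and the H1 box (AAACACA), each on either strand, so that ATTGG is the CCAAT box on the other strand.
Hist1h1b: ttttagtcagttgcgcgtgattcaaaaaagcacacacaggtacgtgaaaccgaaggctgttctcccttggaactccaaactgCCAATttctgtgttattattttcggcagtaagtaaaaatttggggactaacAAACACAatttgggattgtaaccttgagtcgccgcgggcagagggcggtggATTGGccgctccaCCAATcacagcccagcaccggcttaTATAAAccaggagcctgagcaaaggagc
Hist1h1c: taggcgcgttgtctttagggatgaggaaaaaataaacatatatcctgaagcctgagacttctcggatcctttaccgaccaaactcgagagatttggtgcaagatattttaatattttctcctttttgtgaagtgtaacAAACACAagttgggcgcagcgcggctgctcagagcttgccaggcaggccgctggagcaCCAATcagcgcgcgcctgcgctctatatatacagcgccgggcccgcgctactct
Hist1h2bb: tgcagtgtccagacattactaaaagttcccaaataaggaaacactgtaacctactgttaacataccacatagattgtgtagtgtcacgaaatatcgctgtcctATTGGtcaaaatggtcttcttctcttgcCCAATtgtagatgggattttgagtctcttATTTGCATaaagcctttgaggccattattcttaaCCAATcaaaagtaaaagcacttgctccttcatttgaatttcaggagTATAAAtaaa

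The octamer was found in 6 of 13 matched H2A and 6 of 13 matched H2B promoters and in 0 of the H1, H3 and H4 promoters, against 1.7% of all 32851 promoters. Neighbouring H2A and H2B genes that face away from each other have overlapping windows, so the same octamer can be counted for both. The H1 box was found in 5 of 6 H1 promoters, against 7.2% of all promoters. The CCAAT box was found in each matched H1, H2A, H2B and H3 promoter but in 3 of 12 H4 promoters, against 37.4% of all. The TATA box was found in 29 of 49 matched promoters, against 13.6% of all. A match of letters is a description and not a measured binding site.

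The libraries differed in the cells they held, as read from summed marker genes. B-cell markers summed to more than each of the T-cell, myeloid and erythroid markers in 9 of 15 libraries, called B-cell-rich here: replicates 3 and 4 of Eμ-TCL1 in both treatments, and replicates 3, 4 and 5 in DMSO and 4 and 5 in ibrutinib of Eμ-TCL1;p53R172H/+. Eμ-TCL1 replicate 2 in DMSO and replicate 1 in ibrutinib held myeloid markers at 29474 and 20922 and erythroid markers at 17287 and 15004, against B-cell markers at 577.7 and 458.7, and they shared their leading variable genes, Ighv9-3 and Igkv3-5, although their numbers differ. Eμ-TCL1;p53R172H/+ replicates 1 and 2 in DMSO and replicate 1 in ibrutinib held T-cell markers at 2886, 3406 and 1906, against B-cell markers at 278.3, 273.6 and 67.2. Eμ-TCL1;p53R172H/+ replicate 3 in ibrutinib held T-cell and myeloid markers above its B-cell markers. Several libraries shared leading variable genes (in DMSO, Eμ-TCL1 replicates 3 and 4, and Eμ-TCL1;p53R172H/+ replicates 1 and 2 and replicates 3 and 5), and whether they hold separate leukemias was not tested. In such bulk samples fewer cells of a type and less RNA per cell cannot be told apart.

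Histone messages were a small share of each library. In DMSO the 56 genes summed to 0.469, 0.235 and 0.495 percent of the column in Eμ-TCL1 replicates 2, 3 and 4. In Eμ-TCL1;p53R172H/+ replicates 1 to 5 they summed to 0.189, 0.0856, 0.160, 0.188 and 0.210 percent. The 3 Eμ-TCL1 libraries therefore stood above the 5 Eμ-TCL1;p53R172H/+ libraries, with replicate 3 of Eμ-TCL1 nearest to them. In ibrutinib the sums were 0.593, 0.0924 and 0.255 percent in Eμ-TCL1 replicates 1, 3 and 4 and 0.139, 0.0886, 0.0992 and 0.109 percent in Eμ-TCL1;p53R172H/+ replicates 1, 3, 4 and 5. Here the genotypes overlapped, since the B-cell-rich Eμ-TCL1 replicate 3 lay below 3 of the 4 Eμ-TCL1;p53R172H/+ libraries. The highest share in ibrutinib was that of Eμ-TCL1 replicate 1, rich in myeloid and erythroid markers, and the highest in DMSO that of the B-cell-rich Eμ-TCL1 replicate 4.

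**Figure D1:**
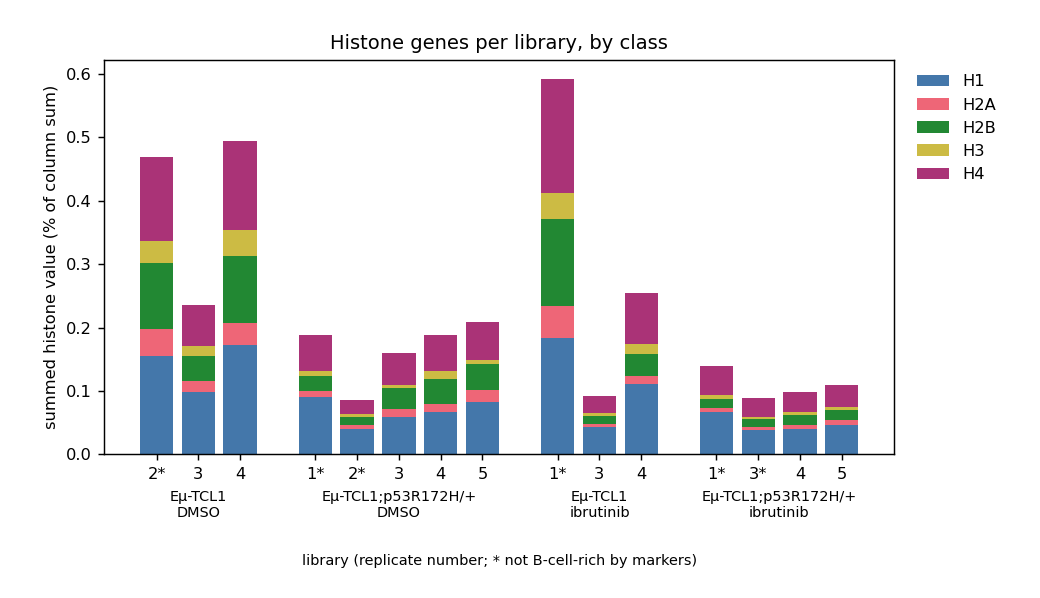
Summed value of the histone genes as a percent of the column sum (y axis) in each library (x axis, by genotype, treatment and replicate number), stacked by histone class, with asterisks on the libraries that were not B-cell-rich. In DMSO the 3 Eμ-TCL1 libraries lie between 0.235% and 0.495% and the 5 Eμ-TCL1;p53R172H/+ libraries between 0.0856% and 0.210%, while in ibrutinib Eμ-TCL1 runs from 0.0924% to 0.593%.

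Linker histones took the largest part of the sum in each of the 15 libraries. H1 genes made up 33.2% to 42.0% of the histone sum in Eμ-TCL1 and 35.9% to 48.4% in Eμ-TCL1;p53R172H/+ in DMSO, and 31.0% to 46.3% and 40.2% to 48.1% in ibrutinib. H4 made up 26.2% to 33.4% over all libraries and H2B 10.1% to 23.2%. H2A made up 5.01% to 9.18% and H3 3.08% to 8.30%. These are shares of reads and not of molecules, as values were not divided by transcript length.

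Hist1h1c, which encodes linker histone H1.2, was the gene with the largest mean share. It took 11.9, 16.6 and 9.92 percent of the histone sum in Eμ-TCL1 replicates 2, 3 and 4 in DMSO. In Eμ-TCL1;p53R172H/+ replicates 1 to 5 it took 31.5, 30.7, 18.6, 11.8 and 21.1 percent, the first 2 being the libraries rich in T-cell markers. The highest share of all, 34.9%, was in the T-cell-rich replicate 1 of Eμ-TCL1;p53R172H/+ in ibrutinib. The part of T cells in this share was not tested. Per kilobase of annotated exon, the highest mean levels in Eμ-TCL1 in DMSO were 401 for Hist2h2bb, 363 for Hist1h4h and 308 for Hist1h1c. Their annotated exons span 381, 470 and 1560 bases. Where the mRNAs end was not measured, so this order depends on the annotation.

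The clusters did not keep a fixed ratio across libraries. The Hist2, Hist3 and Hist4 genes together took 10.3, 11.5 and 11.2 percent of the histone sum in Eμ-TCL1 in DMSO. In Eμ-TCL1;p53R172H/+ replicates 1 to 5 they took 14.8, 18.6, 25.4, 12.0 and 24.4 percent. In ibrutinib these shares were 9.91% to 11.9% in Eμ-TCL1 and 15.4% to 20.5% in Eμ-TCL1;p53R172H/+. The genotypes did not overlap in either table, and a share within a library does not depend on how the library was scaled.

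**Figure D2:**
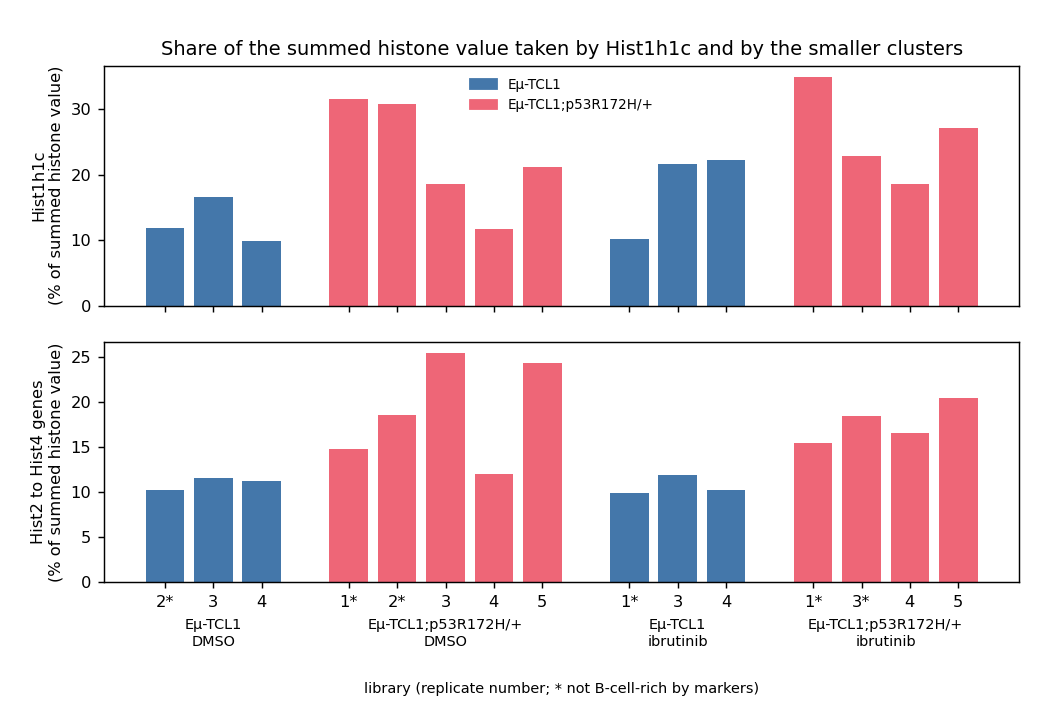
Share of the summed histone value (y axes, percent) taken by Hist1h1c and by the genes of the Hist2, Hist3 and Hist4 clusters together in each library (x axis), coloured by genotype, with asterisks on the libraries that were not B-cell-rich. Hist1h1c runs from 9.92% to 34.9% and is highest in the 3 T-cell-rich libraries, and the smaller clusters take 9.91% to 11.9% in Eμ-TCL1 and 12.0% to 25.4% in Eμ-TCL1;p53R172H/+.

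The genotypes were then compared gene by gene within each table with limma, which asks whether mutant p53 goes with another level of each histone gene. Log2 changes are Eμ-TCL1;p53R172H/+ minus Eμ-TCL1 on log2(value + 1), which understates the change of low genes, and p-values were adjusted over all genes by the Benjamini-Hochberg method. The labels do not say whether the samples came from separate animals, and p-values measure only the spread between these samples. In DMSO 53 of 56 histone genes had a log2 change below 0, against 46.7% of all genes, with a median of -1.64, against 0.04 over all genes. By limma 0 histone genes passed an adjusted p of 0.05, as did 2 of 16470 genes (0.0121%), and the smallest adjusted p among members was 0.245. At an unadjusted p under 0.05, 37 histone genes were lower and 0 higher, against 4.65% and 3.52% of all genes (8.17% in either direction). In 22 members the Eμ-TCL1;p53R172H/+ libraries all lay below the Eμ-TCL1 libraries, against 2.93% of all genes. With sample quality weights, which count libraries far from their group for less, 24 histone genes passed an adjusted p of 0.05, as did 803 of all genes. Eμ-TCL1 replicate 2 was the highest library for 44 of 56 members, and without it 24 members were lower at an unadjusted p under 0.05, against 5.8% of all genes.

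Among the H1 genes in DMSO, Hist1h1d (H1.3) was 345.6, 222.3 and 286.3 in Eμ-TCL1 and 88.8, 37.8, 40.5, 132.6 and 60.2 in Eμ-TCL1;p53R172H/+. The groups did not overlap, and the log2 change was -2.11 (SE 0.42, adjusted p = 0.265). Hist1h1e (H1.4), also without overlap, was 490.9, 284.3 and 340.5 against 185.3, 113.8, 176.5, 162.7 and 259.1, a log2 change of -1.06 (SE 0.30, adjusted p = 0.469). Hist1h1c, of the same cluster, had a smaller log2 change, -0.44 (SE 0.38, adjusted p = 0.698). It was 641.7, 380.1 and 420.2 in Eμ-TCL1 and 574.2, 327.5, 291.4, 192.3 and 453.6 in Eμ-TCL1;p53R172H/+, so that the groups overlapped. Within the B-cell-rich libraries in DMSO, Hist1h1d, Hist1h1e and Hist1h1c had log2 changes of -1.86, -0.67 and -0.44. The contrast between these genes was not tested. Hist1h1a (H1.1) was 124.2, 27.7 and 275.0 against 12.9 to 40.1, and Hist1h1b (H1.5) was 180.2, 46.7 and 151.8 against 7.4 to 58.6. In both, Eμ-TCL1 replicate 3 lay within the range of the other genotype, and the log2 changes were -2.25 and -1.93. Hist1h1t was at most 2.1 in any library, and its highest value was found in Eμ-TCL1;p53R172H/+ replicates 3 and 5, which share their variable genes.

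**Figure D3:**
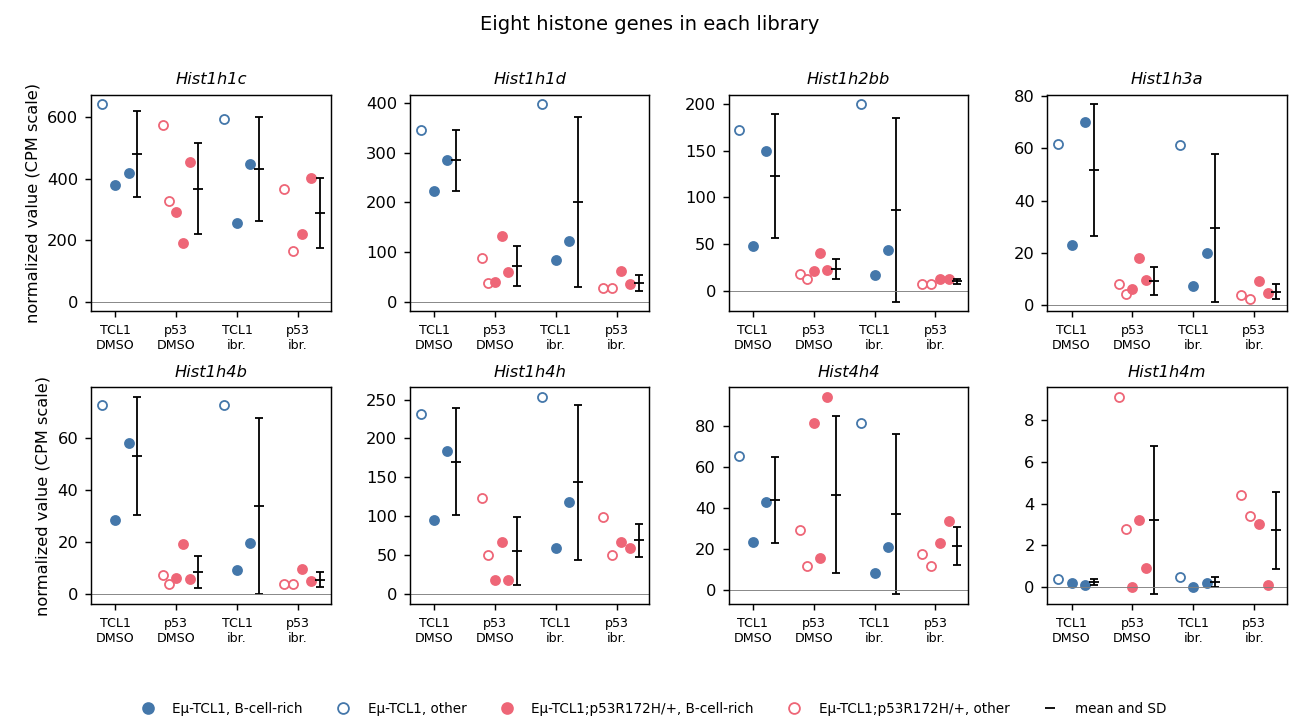
Normalized value (y axis, counts-per-million scale) of 8 histone genes in each library (points), by genotype and treatment (x axis), with the mean and SD of each group. Filled points are B-cell-rich libraries and open points the others. In DMSO the genotypes do not overlap for Hist1h1d, Hist1h2bb, Hist1h3a and Hist1h4b and overlap for Hist1h1c, Hist1h4h and Hist4h4, and Hist1h4m is at or below 0.5 in each Eμ-TCL1 library.

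Of 15 H2A genes in DMSO, 14 had a log2 change below 0, against 46.7% of all genes, with a median of -1.69. Of these genes 10 were lower and 0 higher at an unadjusted p under 0.05, against 4.65% and 3.52% of all genes. Hist1h2ab had the lowest log2 change of all members. It was 61.9, 9.6 and 31.0 in Eμ-TCL1 and 2.9, 1.0, 1.7, 9.0 and 2.8 in Eμ-TCL1;p53R172H/+, giving a log2 change of -2.86 (SE 0.68, adjusted p = 0.340). Hist1h2ae was 17.0, 5.3 and 10.3 against 0.7, 0.7, 0.5, 3.3 and 0.8, a log2 change of -2.43 (SE 0.47, adjusted p = 0.245). The groups did not overlap in either gene. H2A genes of the smaller clusters had values nearer 0. Hist2h2ac was 87.5, 55.3 and 71.2 against 38.5, 34.7, 72.1, 33.2 and 109.6, a log2 change of -0.44, and Hist2h2ab and Hist3h2a had log2 changes of -0.01 and 0.00.

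All 16 H2B genes had a log2 change below 0 in DMSO, against 46.7% of all genes, with a median of -1.66. Of these genes 10 were lower and 0 higher at an unadjusted p under 0.05, against 4.65% and 3.52% of all genes. Hist1h2bb was 172.4, 47.8 and 149.7 in Eμ-TCL1 and 18.0, 12.5, 21.2, 40.5 and 22.3 in Eμ-TCL1;p53R172H/+, giving a log2 change of -2.28 (SE 0.49, adjusted p = 0.285). Hist1h2bg was 87.5, 50 and 78.9 against 12.7, 7.5, 11.4, 36.3 and 14.0, a log2 change of -2.23 (SE 0.46, adjusted p = 0.284). Neither gene showed overlap. Hist2h2bb, annotated as noncoding, was 186.4, 71.2 and 200.2 against 69.3, 50.7, 115.2, 72.9 and 143.9, with overlap and a log2 change of -0.71. Hist1h2be overlaps Hist1h1e on the same strand in the annotation, so reads of the shared stretch cannot be assigned to either with certainty. The log2 change of Hist1h2be was -1.03 beside -1.06 for Hist1h1e.

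H3 had the lowest class median in DMSO, -2.18 over 6 genes. Of them 4 were lower at an unadjusted p under 0.05, against 4.65% of all genes. Hist1h3a was 61.9, 22.8 and 70.1 in Eμ-TCL1 and 7.9, 4.2, 5.9, 18.0 and 9.5 in Eμ-TCL1;p53R172H/+, giving a log2 change of -2.37 (SE 0.51, adjusted p = 0.285). Hist1h3e was 114.2, 77.4 and 129.8 against 35.2, 25.4, 12.6, 49.7 and 19.7, a log2 change of -1.98 (SE 0.42, adjusted p = 0.285). In both the groups were apart. Hist1h3b was 86.4, 12.3 and 65.7 against 5.5, 3.4, 6.6, 16.1 and 5.2, with a log2 change of -2.52, and here Eμ-TCL1 replicate 3 lay below Eμ-TCL1;p53R172H/+ replicate 4.

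The 13 H4 genes, which encode almost the same protein, differed among themselves. Hist1h4b was 72.6, 28.4 and 58.2 in Eμ-TCL1 and 7.2, 3.8, 6.4, 19.1 and 5.8 in Eμ-TCL1;p53R172H/+, giving a log2 change of -2.60 (SE 0.50, adjusted p = 0.245). Hist1h4f was 182.7, 39.4 and 121.1 against 18.8, 8.5, 7.3, 35.2 and 9.4, a log2 change of -2.76 (SE 0.62, adjusted p = 0.319). Both were without overlap, as was Hist1h4d, with a log2 change of -1.13, while the groups overlapped for Hist1h4c, with -0.83. Hist1h4h was 231.9, 95.6 and 183.7 against 123.1, 49.9, 18.1, 67.4 and 19.0, a log2 change of -1.87, with overlap through the T-cell-rich replicate 1. The lowest values of this gene were those of replicates 3 and 5, which share their variable genes. In the same libraries Hist4h4, chosen after its values were seen, was highest, at 81.4 and 94.1, against 23.7 to 65.5 in Eμ-TCL1 and 12.0 to 29.6 in the other 3 Eμ-TCL1;p53R172H/+ libraries. In ibrutinib, replicate 5 held Hist4h4 at 33.8 and Hist1h4h at 59.4.

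Hist1h4m had the highest log2 change of all members. It was 0.4, 0.2 and 0.1 in Eμ-TCL1 and 9.1, 2.8, 0.0, 3.2 and 0.9 in Eμ-TCL1;p53R172H/+ in DMSO, giving a log2 change of 1.36 (SE 0.66, adjusted p = 0.636). In ibrutinib it was 0.5, 0.0 and 0.2 against 4.4, 3.4, 3.0 and 0.1, a log2 change of 1.39 (SE 0.55, adjusted p = 0.383), and it was the 1 member higher at an unadjusted p under 0.05, as were 5.69% of all genes. The groups overlapped in both tables. Histone genes of the same class have nearly the same coding sequence, so some reads cannot be assigned to a single copy. The values of single genes are therefore uncertain.

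**Figure D4:**
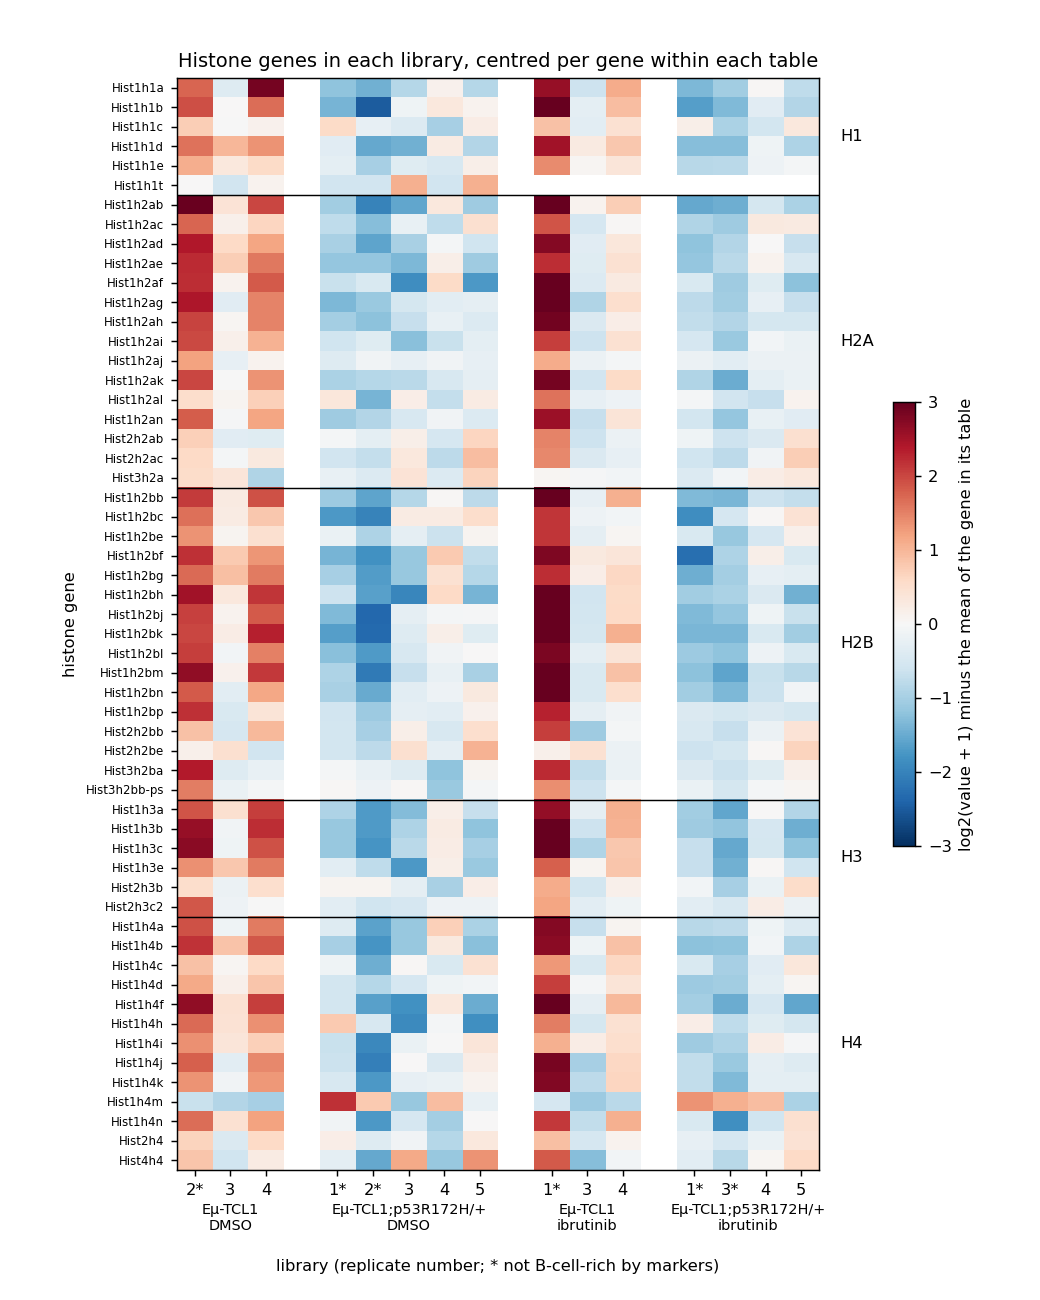
Log2(value + 1) of each histone gene (rows, by class) minus its mean in the table, in each library (columns), with red above and blue below the mean and the colours limited to -3 and 3. Eμ-TCL1 replicate 2 in DMSO and replicate 1 in ibrutinib are the highest libraries for 44 of 56 and 52 of 55 genes. Hist1h1t is blank in ibrutinib because that table does not list it.

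By cluster, the median log2 change in DMSO was -1.88 over the 45 Hist1 genes, -0.44 over the 7 Hist2 genes and -0.67 over the 3 Hist3 genes, and the value of Hist4h4 was -0.25. All 37 genes lower at an unadjusted p under 0.05 belonged to Hist1, against 4.65% of all genes lower at this threshold. The class medians were closer together, from -2.18 for H3 to -1.36 for H4. Genes whose annotated transcript ends near the stem-loop had a median of -2.23, those with a longer transcript -1.06 and those without an annotated stem-loop -1.44. In ibrutinib these medians were -1.84, -1.05 and -1.22. The difference between these sets was not tested.

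In 11 pairs an H2A and an H2B gene face away from each other, 173 to 302 bases apart, and share the stretch between their starts. Hist1h2ae and Hist1h2bg, 176 bases apart, had log2 changes of -2.43 and -2.23 in DMSO, and Hist1h2ak and Hist1h2bn, 296 bases apart, had -1.79 and -1.43. The partners differed most for Hist1h2aj, a pseudogene at 2.0 or less in each library, and Hist1h2bm, with -0.58 and -2.62. In the Hist2 pair the values were -0.44 for Hist2h2ac and -0.03 for Hist2h2be.

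Within the B-cell-rich libraries the difference in DMSO was smaller. Among Eμ-TCL1 replicates 3 and 4 and Eμ-TCL1;p53R172H/+ replicates 3, 4 and 5, 49 of 56 members had a log2 change below 0, against 49.8% of all genes, with a median of -0.83. At an unadjusted p under 0.05, 14 members were lower and 0 higher, against 8.71% and 8.35% of all genes, and 0 members passed an adjusted p of 0.05 in limma. By class, the 14 were 1 H1, 3 H2A, 3 H2B, 2 H3 and 5 H4 genes. In 23 members the Eμ-TCL1;p53R172H/+ libraries of this set all lay below the Eμ-TCL1 libraries and in 0 above them, against 16.2% and 16.5% of all genes. Hist1h4f, Hist1h4h and Hist1h3e had log2 changes of -2.26, -2.17 and -2.06 here, and Hist4h4 had 0.63. The Hist1 genes had a median of -1.19 and the Hist2 genes -0.16.

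In ibrutinib, with all 7 libraries, 53 of 55 members had a log2 change below 0, against 54.4% of all genes, with a median of -1.39, against -0.05. By limma 0 members passed an adjusted p of 0.05, as did 0% of all genes, and the smallest adjusted p was 0.262, that of Hist1h1d. At an unadjusted p under 0.05, 18 members were lower, against 6.32% of all genes, and in 12 members the Eμ-TCL1;p53R172H/+ libraries all lay below the Eμ-TCL1 libraries and in 0 above them, against 5.97% and 6.68% of all genes. Hist1h1d was 397.1, 83.0 and 121.2 in Eμ-TCL1 and 27.8, 27.7, 62.2 and 35.4 in Eμ-TCL1;p53R172H/+, giving a log2 change of -2.11 (SE 0.55). Hist1h2bb was 199.6, 17.1 and 43.8 against 7.6, 7.3, 13.0 and 12.2, a log2 change of -2.35 (SE 0.74, adjusted p = 0.321). In both genes Eμ-TCL1 replicate 1, rich in myeloid and erythroid markers, stood far above the other Eμ-TCL1 libraries, and without it the median over members was -0.60. Hist1h1c was 595.3, 257.5 and 446.5 against 367.0, 165.5, 218.7 and 403.3, with overlap, as in DMSO, and a log2 change of -0.59.

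Within the B-cell-rich libraries in ibrutinib, 40 of 55 members had a log2 change below 0, against 52.6% of all genes, with a median of -0.26. At an unadjusted p under 0.05, 3 members were lower, Hist1h1d, Hist1h2ab and Hist1h2bg, and 0 higher, against 7.37% and 6.01% of all genes. In 12 members the Eμ-TCL1;p53R172H/+ libraries lay below the Eμ-TCL1 libraries and in 5 above them, against 23.4% and 19.3% of all genes, so that the count below was near the background and the count above was under it. The 7 Hist2 genes each had a log2 change above 0 here, with a median of 0.37, and Hist4h4 had 0.998.

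**Figure D5:**
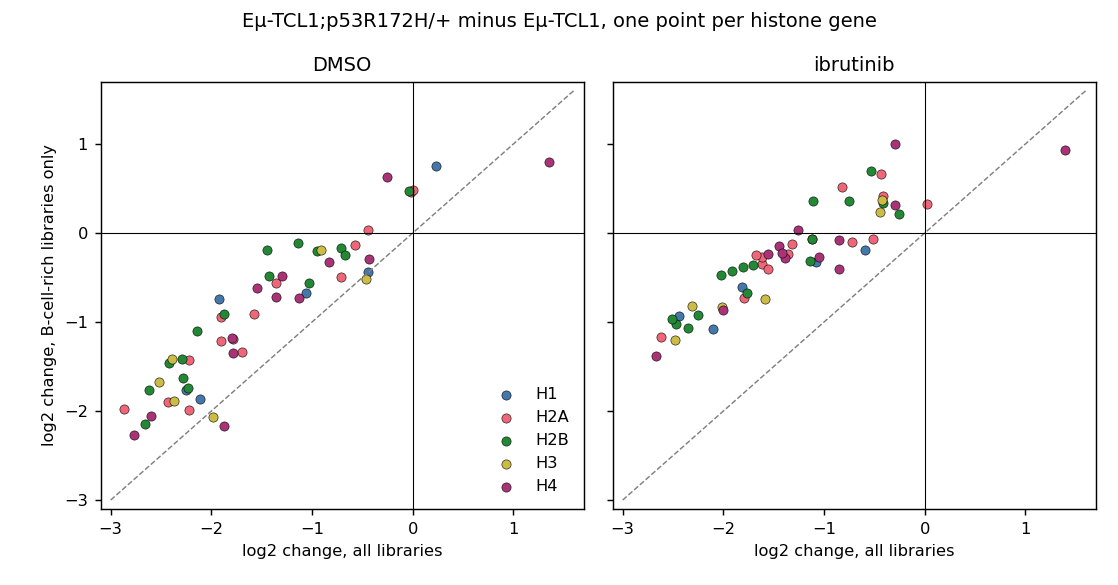
Log2 change between genotypes (Eμ-TCL1;p53R172H/+ minus Eμ-TCL1) of each histone gene with all libraries (x axis) and with B-cell-rich libraries only (y axis), in DMSO and in ibrutinib, coloured by class, with equal values on the dashed line. Most points lie above the line, with medians of -0.83 against -1.64 in DMSO and -0.26 against -1.39 in ibrutinib.

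The difference between the genotype differences in ibrutinib and in DMSO was tested over all 15 libraries for 55 members. In limma 0 members passed an adjusted p of 0.05 or an unadjusted p under 0.05, against 0.347% of all genes below 0 and 0.176% above 0 at an unadjusted p under 0.05. The median was 0.14, against -0.07 over all genes, and the highest values were those of Hist1h2ae, 1.07 (SE 0.79), and Hist1h4h, 1.02 (SE 0.88). This fit treated the 15 libraries as independent, while the deviations of same-numbered libraries from their group means correlated across treatments at 0.806 and 0.837 in Eμ-TCL1 and at 0.776, -0.104, 0.715 and 0.731 in Eμ-TCL1;p53R172H/+. With genotype and number as a replicate block, 7 members had an interaction above 0 at an unadjusted p under 0.05 and 0 below it, against 5.05% of all genes in either direction, with a median of 0.42 and 0 members at an adjusted p of 0.05. Libraries without a same-numbered partner, among them both myeloid-rich Eμ-TCL1 libraries, do not enter this estimate. Without those myeloid-rich libraries the median of the fit without a block was 0.70. In Eμ-TCL1;p53R172H/+ replicate 3 the leading variable gene was Ighv6-3 in DMSO and Ighv1-52 in ibrutinib. A p that misses the threshold does not show that the genotype difference was alike in both treatments. The median ranged from -0.39 without Eμ-TCL1 replicate 3 in ibrutinib to 1.06 without Eμ-TCL1 replicate 1.

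Levels in ibrutinib were not tested against DMSO, because the tables were scaled separately, but each library's share of its own column can be set side by side. Among libraries with the same genotype, number and leading variable genes, the histone share in ibrutinib divided by that in DMSO was 0.393 and 0.515 for Eμ-TCL1 replicates 3 and 4. It was 0.738, 0.527 and 0.522 for Eμ-TCL1;p53R172H/+ replicates 1, 4 and 5. For Eμ-TCL1 replicate 2 in DMSO and replicate 1 in ibrutinib, which share variable genes but not a number, the ratio was 1.26. The histone share was thus lower in ibrutinib in 5 of these 6 pairs. The other 4 pairings that share variable genes but not a number reuse some of these libraries, and their ratios were 1.08, 0.187, 1.63 and 0.686. Mitochondrially encoded genes took up to 43.7% of a column, and with them left out the ratios of the first 6 pairs in the same order were 0.579, 0.538, 0.752, 0.847, 0.839 and 1.22.

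S-phase genes were set beside the histones, since cells in S phase express both. A list of 32 S-phase and G1/S genes had a share in ibrutinib that was 0.390, 0.246, 0.915, 0.253 and 0.388 times that in DMSO in the first 5 of those pairs and 1.008 times in the sixth. The summed histone value divided by the summed S-phase value was 2.29 to 4.65 in Eμ-TCL1 and 1.46 to 2.72 in Eμ-TCL1;p53R172H/+ in DMSO. In ibrutinib it was 3.16 to 5.83 and 1.74 to 3.67, so the genotypes overlapped in both treatments. Between genotypes 5 of the 32 genes were lower at an unadjusted p under 0.05 in DMSO and 0 higher, the median log2 change being -0.66, and in ibrutinib 2 were lower, with a median of -0.44. Of 30 G2/M genes 24 were lower at this threshold in DMSO and 27 in ibrutinib, with medians of -1.48 and -1.82, against 4.65% and 6.32% of all genes. Within the B-cell-rich libraries 1 and 7 of the 30 were lower, against 8.71% and 7.37% of all genes, with medians of -0.79 and -1.15. The S-phase list had 1 gene lower and 0 higher there in DMSO, and 1 lower and 1 higher in ibrutinib, with medians of -0.36 and 0.04. The shares of all genes were 8.71% lower and 8.35% higher in DMSO, and 7.37% and 6.01% in ibrutinib. By limma 0 genes of either list passed an adjusted p of 0.05. Thymidine kinase Tk1, the S-phase gene of lowest p, was 15.2, 22.4 and 44.8 in Eμ-TCL1 and 3.1, 3.1, 2.8, 10.7 and 3.3 in Eμ-TCL1;p53R172H/+ in DMSO, giving a log2 change of -2.36 (adjusted p = 0.285).

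Factors that transcribe and process histone mRNA had medians near 0. Of 22 listed, 1 (Ccne2, the S-phase cyclin E2) was lower and 0 higher at an unadjusted p under 0.05 in DMSO. Over all genes 4.65% were lower and 3.52% higher, and the median of the list was -0.02. Slbp, which binds the stem-loop, was 50.5, 39.6 and 63.0 in Eμ-TCL1 and 45.6, 47.4, 34.8, 34.4 and 33.8 in Eμ-TCL1;p53R172H/+, with overlap and a log2 change of -0.36 (adjusted p = 0.645). The overlap came through the T-cell-rich replicates 1 and 2, and within the B-cell-rich libraries Slbp showed none, with a log2 change of -0.53. Of the 22 factors 5 lay lower and 3 higher without overlap there, against 16.2% and 16.5% of all genes, with a median of -0.20. Npat, the coactivator of histone genes, was 49.2, 49.5 and 46.9 against 68.7, 82.5, 55.7, 48.2 and 23.3, a log2 change of 0.08. Of 22 chaperones and deposition factors, 1 was lower (Asf1b, -1.29) and 1 higher (Nap1l4, at 0.56) at an unadjusted p under 0.05. For both lists of 22 the counts at this threshold were near the shares over all genes. Of 9 replication-independent variants 1 was lower, H2afx, at -1.17, against 4.65% of all genes. H1f0, the variant linker histone H1.0, was 40.7, 53.7 and 27.5 in Eμ-TCL1 and 6.9, 7.6, 165.9, 60.9 and 184.1 in Eμ-TCL1;p53R172H/+, highest in the libraries 3 and 5 that also held the highest Hist4h4. In ibrutinib the medians of the 3 lists were 0.03, 0.07 and -0.16, and 0 genes of these lists passed an adjusted p of 0.05 by limma in either table.

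Marker genes of other cells also had values that went with genotype. In DMSO, 11 of 11 myeloid and 9 of 9 erythroid markers had a log2 change below 0, with medians of -2.90 and -2.35, as had 10 of 10 B-cell markers, with a median of -0.82. Of 12 T-cell markers 11 had a log2 change above 0, with a median of 0.91. At an unadjusted p under 0.05 by limma, 4 myeloid markers were lower in DMSO. At this threshold 0 erythroid, B-cell or T-cell markers were lower or higher there, against 4.65% and 3.52% of all genes. In ibrutinib the 4 medians in the same order were -2.09, -1.62, -1.52 and 2.01. At this threshold 2 myeloid, 0 erythroid and 1 B-cell markers were lower and 10 T-cell markers higher in ibrutinib, against 6.32% and 5.69% of all genes. Within the B-cell-rich libraries the medians were -0.34, 0.07, -0.25 and -0.49 in DMSO and -0.16, 2.05, -0.98 and 1.46 in ibrutinib. Their part in the histone values was not tested. The B-cell-rich libraries in ibrutinib still differed in their cells between genotypes. There 9 of 10 B-cell markers lay lower and 9 of 12 T-cell markers higher in Eμ-TCL1;p53R172H/+ without overlap, against 23.4% and 19.3% of all genes. RNAs known to lack a poly(A) tail made up 2.92% to 7.84% of each column, and by limma 0 of 13 differed between genotypes at an unadjusted p under 0.05 or an adjusted p of 0.05 in either table.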

How the data were processed

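Total RNA of 15 libraries was sequenced. The submitters' processing notes name TopHat2 (version 2.0.12), SAMtools (version 0.1.19), HTSeq and edgeR with the build mm10 (GRCm38), and per the methods the authors summed aligned reads per gene with HTSeq and normalized with edgeR. The 2 deposited tables, for DMSO and for ibrutinib, hold a normalized signal, CPM relative to the effective library size rounded to 0.1, for genes that passed a filter of the authors at 0.5 CPM. The library kit, poly(A) selection and strand setting are not given in the sources used here. The files give no read counts, so the depth of each library is unknown and intervals for counting error cannot be computed.

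Values were fitted as log2(value + 1) for all genes of a table with limma 3.58.1 (R 4.3.3; lmFit, eBayes with trend), with genotype as the term and Benjamini-Hochberg adjustment at 0.05. The interaction was fitted over all 15 libraries for the 15869 genes in both tables. Gene positions and stem-loops came from GENCODE M21 (GRCm38), matched by ID for 53 members and by symbol for 3, and promoters from RefSeq. The stem-loop search allowed either pyrimidine at the paired variable positions of the stem, with the matching purines on its other side (their pairing was not required), A, C or T at one loop position and any base at the last loop position. The genes named were each H1 gene, the 3 highest genes of each core class by mean value, the members of lowest p, of lowest and highest log2 change and of extreme interaction in each table, and Hist1h1t. Further members and single genes of other lists were named after their values were seen. The members and lists were chosen with earlier results of these data known. The steps were run on simulated data whose spread between libraries was capped below that of many histone genes here. That run does not show how often changes are missed or wrongly called in these data. Summaries and figures were made with Python 3.11.15, pandas 2.3.3 and matplotlib 3.10.9. The alternatives were other pseudocounts (0.1 and 5), a mean value of at least 5, other scalings, sample weights, a replicate block and libraries left out.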

Additional observations from a re-analysis of the deposited data

Results flagged for a closer look

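In 6 of 61 checks of a member in a group of 4 or 5 libraries, 1 library lay farther from the rest than Dixon's 95% limit. Chance alone gives about 1 such result in 20 independent groups. The checks here share libraries, so their number was not tested against that rate. All 6 were high values in Eμ-TCL1;p53R172H/+ replicate 4 in DMSO, a B-cell-rich library whose leading variable genes (Ighv12-3 and Igkv4-91) were also those of replicate 4 in ibrutinib and of no other DMSO library. It held Hist1h1a at 40.1, Hist1h2ab at 9.0, Hist1h2ae at 3.3, Hist1h2bg at 36.3, Hist1h3b at 16.1 and Hist1h4b at 19.1. The other 4 libraries of the group held these genes at 12.9 to 19.9, 1.0 to 2.9, 0.5 to 0.8, 7.5 to 14.0, 3.4 to 6.6 and 3.8 to 7.2 in the same order. S-phase genes summed to 0.129% of the column in this library, against 0.0552% to 0.0850% in the other 4, and their part in these values was not tested. Without this library the smallest adjusted p among members was 0.0579 by limma.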

How the results depend on the processing

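In DMSO 0 members passed an adjusted p of 0.05 by limma under each alternative except sample quality weights, where 24 of 56 did (13 of them genes named by rule), as did 803 of all genes. In the B-cell-rich libraries, a set chosen after seeing the data, 14 members had an unadjusted p under 0.05 in DMSO and 3 in ibrutinib, against 17.1% and 13.4% of all genes, and the medians were -0.83 and -0.26. Without the libraries with few variable transcripts (Eμ-TCL1;p53R172H/+ replicates 1 and 2 in DMSO and 1 in ibrutinib) 8 members had an unadjusted p under 0.05 in ibrutinib, against 9.74% of all genes, and the median of the interaction was -0.0083. With each library left out in turn, 24 to 41 members had an unadjusted p under 0.05 in DMSO (24 with Eμ-TCL1 replicate 2 dropped) and 7 to 38 in ibrutinib (38 with Eμ-TCL1 replicate 3 dropped, and 8 and 7 with replicates 1 and 3 of Eμ-TCL1;p53R172H/+ dropped), against 6.05% to 10.6% and 7.5% to 15.9% of all genes. The medians ran from -2.13 to -1.20 in DMSO, from -1.997 to -0.60 in ibrutinib (-0.60 without Eμ-TCL1 replicate 1) and from -0.39 to 1.06 for the interaction. The cause of these moves was not tested. Log2 changes near 0 turned sign. In DMSO Hist1h1t was -0.0137 with a pseudocount of 0.1. Hist3h2a was -0.0142 with a pseudocount of 5, -0.0237 with columns rescaled to 1000000 and -0.15 with the replicate block. It was -0.0685 with the Eμ-TCL1;p53R172H/+ libraries that share variable genes averaged. Eμ-TCL1 replicates 3 and 4, which also share theirs, were kept separate in that setting. Hist2h2ab in DMSO was 0.17 with quantile normalization, 0.50 with sample weights, 0.10 without the libraries with few variable transcripts and 0.46 in B-cell-rich libraries, where Hist2h2ac was 0.0311. In ibrutinib Hist2h2bb was 0.0259 with sample weights and Hist3h2a -0.0729 with the replicate block, and in B-cell-rich libraries Hist2h2bb was 0.70, Hist2h2ab 0.42 and Hist2h2ac 0.67. The interaction of Hist1h1b was 0.19 without the 2 myeloid-rich libraries. With a library left out, Hist1h1t ran from -0.0129 to 0.395, Hist2h2ab from -0.20 to 0.35 and Hist3h2a from -0.45 to 0.28 in DMSO. In ibrutinib Hist2h2ab ran from -0.84 to 0.22, Hist3h2a from -0.0729 to 0.166, Hist2h2ac from -0.78 to 0.17 and Hist2h2bb from -1.23 to 0.34, and the interactions of Hist2h2ab and Hist1h1b from -0.82 to 0.23 and from -1.35 to 0.56. Replicate numbers did not pair the genotypes, since the deviations of same-numbered libraries correlated at 0.17, 0.25 and 0.05 in DMSO and -0.05, -0.16 and -0.17 in ibrutinib. With the replicate block 28 members in DMSO had an unadjusted p under 0.05 (median -1.80), 19 in ibrutinib (median -1.53) and 7 for the interaction (median 0.42), against 5.89%, 9.07% and 5.05% of all genes, and 0 passed an adjusted p of 0.05. Depth is unknown, so its limit on low genes cannot be given.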
